A study of Mus musculus with 6 samples.

Results

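The genes of DNA replication and of the cell division cycle were examined in liver RNA of congenic B6.C3H-6T and of C57BL/6J mice. The set was a list of 46 genes. A gene entered when the platform annotation paired at least 1 probe set with that gene alone, and it was then represented by the probe set of highest mean over all 6 arrays. By this rule 45 of the 46 genes were measured, out of 18194 genes in all, and Ccnb1 was not analysed here. Of the 45, 4 act at entry into G1 (the cyclin D genes and Cdk4), 26 at the passage from G1 into S phase or in DNA synthesis, and 15 in G2 and mitosis.

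The tested mice were 3 females of B6.C3H-6T, a strain on the C57BL/6J background that carries a C3H segment of chromosome 6, and they were compared with 3 C57BL/6J females. All were 8 weeks old and fed chow, each array held the liver RNA of 1 mouse, and per the series title the congenic strain has low serum IGF-1. The limits of the C3H segment are not given in the labels. The markers of hepatocytes fitted the labelled tissue, since the lowest of the 10 on any array was 11.67 on the log2 scale. Array medians lay between 6.08 and 6.11.

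A cell that leaves quiescence makes D cyclins, which with Cdk4 or Cdk6 inactivate the retinoblastoma protein and so free the E2F transcription factors. E2F factors then switch on the genes of nucleotide supply, of the MCM helicase and of the polymerases, and a second wave of genes with cyclin B, Cdk1, the Aurora and Polo kinases and the spindle checkpoint carries the cell through mitosis. Adult hepatocytes are mostly quiescent and largely polyploid, and in mouse liver E2f8, an atypical repressor of the family, is known to act in the switch from division to polyploidy. The promoters of S phase genes often hold E2F sites, and those of mitotic genes often hold a CHR element together with CCAAT boxes bound by NF-Y.

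The letters of these elements were counted on both strands in RefSeq promoters of GRCm38.p6. The window ran from 250 bases before to 50 bases after each start. There were 32851 promoters for 27025 genes, and a gene counted as matched when any of its promoters held a match. A match is a description of the letters and no measured site. An E2F match (TTTGGCGC, TTTCCCGC, TTTCGCGC or TTTGCCGC) was present at 9 of the 21 G1/S genes with a promoter in the table (42.9%) and at 1 of 12 G2/M genes (8.33%), against 2.60% of all 27025 genes with a promoter. A CHR match (TTTGAA or TTCGAA) was present at 11 of 12 G2/M genes (91.7%) and at 4 of 21 G1/S genes (19.0%), against 21.7% of all genes. A CCAAT box was present at 11 of 12 G2/M genes and at 13 of 21 G1/S genes (61.9%), against 41.1% of all genes. Base composition was not matched in these shares. The G2/M gene with an E2F match was Cdk1. Neither of the 2 G1 entry genes with a promoter in the table had an E2F or a CHR match, and 1 of them had a CCAAT box.

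The 250 bases before the start are shown for members of small p within each phase, with the matched letters in capitals on either strand, because they carry the elements just counted. They lie at chr5:138171884-138172133 (minus strand) for Mcm7, chr7:48881597-48881846 (minus strand) for E2f8 and chr17:47593217-47593466 (plus strand) for Ccnd3, and at chr4:118437344-118437593 (minus strand) for Cdc20 and chr2:172370571-172370820 (minus strand) for Aurka.
Mcm7: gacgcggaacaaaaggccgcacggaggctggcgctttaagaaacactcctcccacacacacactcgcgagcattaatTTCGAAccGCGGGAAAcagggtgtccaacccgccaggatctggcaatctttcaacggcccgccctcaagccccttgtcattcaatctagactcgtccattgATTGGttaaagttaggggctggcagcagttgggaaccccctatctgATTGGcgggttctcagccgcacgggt
E2f8: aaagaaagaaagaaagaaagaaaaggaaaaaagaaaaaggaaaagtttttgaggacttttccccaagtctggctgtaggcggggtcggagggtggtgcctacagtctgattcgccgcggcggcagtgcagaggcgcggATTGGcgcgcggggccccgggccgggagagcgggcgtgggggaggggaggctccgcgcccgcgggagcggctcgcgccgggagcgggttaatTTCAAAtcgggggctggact
Ccnd3: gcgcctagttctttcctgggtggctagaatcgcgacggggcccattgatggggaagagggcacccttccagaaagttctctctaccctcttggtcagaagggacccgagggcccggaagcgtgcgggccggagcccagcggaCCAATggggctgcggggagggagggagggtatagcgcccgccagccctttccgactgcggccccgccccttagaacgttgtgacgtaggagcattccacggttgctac
Cdc20: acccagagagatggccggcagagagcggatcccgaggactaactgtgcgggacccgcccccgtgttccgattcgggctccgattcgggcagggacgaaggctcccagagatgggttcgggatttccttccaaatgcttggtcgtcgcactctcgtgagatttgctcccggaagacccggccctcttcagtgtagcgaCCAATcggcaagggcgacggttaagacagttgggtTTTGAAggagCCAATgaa
Aurka: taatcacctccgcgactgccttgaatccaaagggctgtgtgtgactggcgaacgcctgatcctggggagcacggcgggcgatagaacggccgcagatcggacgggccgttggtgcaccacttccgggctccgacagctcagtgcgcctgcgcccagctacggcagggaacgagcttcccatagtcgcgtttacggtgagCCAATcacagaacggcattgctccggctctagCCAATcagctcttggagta
The window of Mcm7 holds an E2F match, GCGGGAAA, beside a CHR match. Those of E2f8 and Cdc20 hold a CHR match close to the start and at least 1 CCAAT box, and the bases printed for Ccnd3 and Aurka hold CCAAT boxes only. The CHR match counted for Aurka is not within the 250 bases printed.

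The first comparison asked whether any of the 45 genes differed between the strains. None passed in limma with Benjamini-Hochberg adjustment over all genes (lowest adjusted p = 0.152, for Mcm7), where 13 of 18194 genes passed (0.0715%). At an unadjusted p under 0.05 there were 8 members (17.8%), 7 of them lower in B6.C3H-6T and 1 higher, against 12.2% of all genes in either direction, 5.82% lower and 6.36% higher. The strains did not overlap at 10 members (22.2%), 7 lower and 3 higher, against 17.8% of all genes in either direction, 7.49% lower and 10.3% higher. The median difference of the 45 was -0.05 on the log2 scale, against 0.02 over all genes. In either direction, 28 of the 45 members differed by less than 0.15, as did 14436 of the 18194 genes, so that a smaller share of the members than of all genes lay this close to 0. The 95% interval of 37 of 45 lay inside -0.5 to 0.5.

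**Figure D1:**
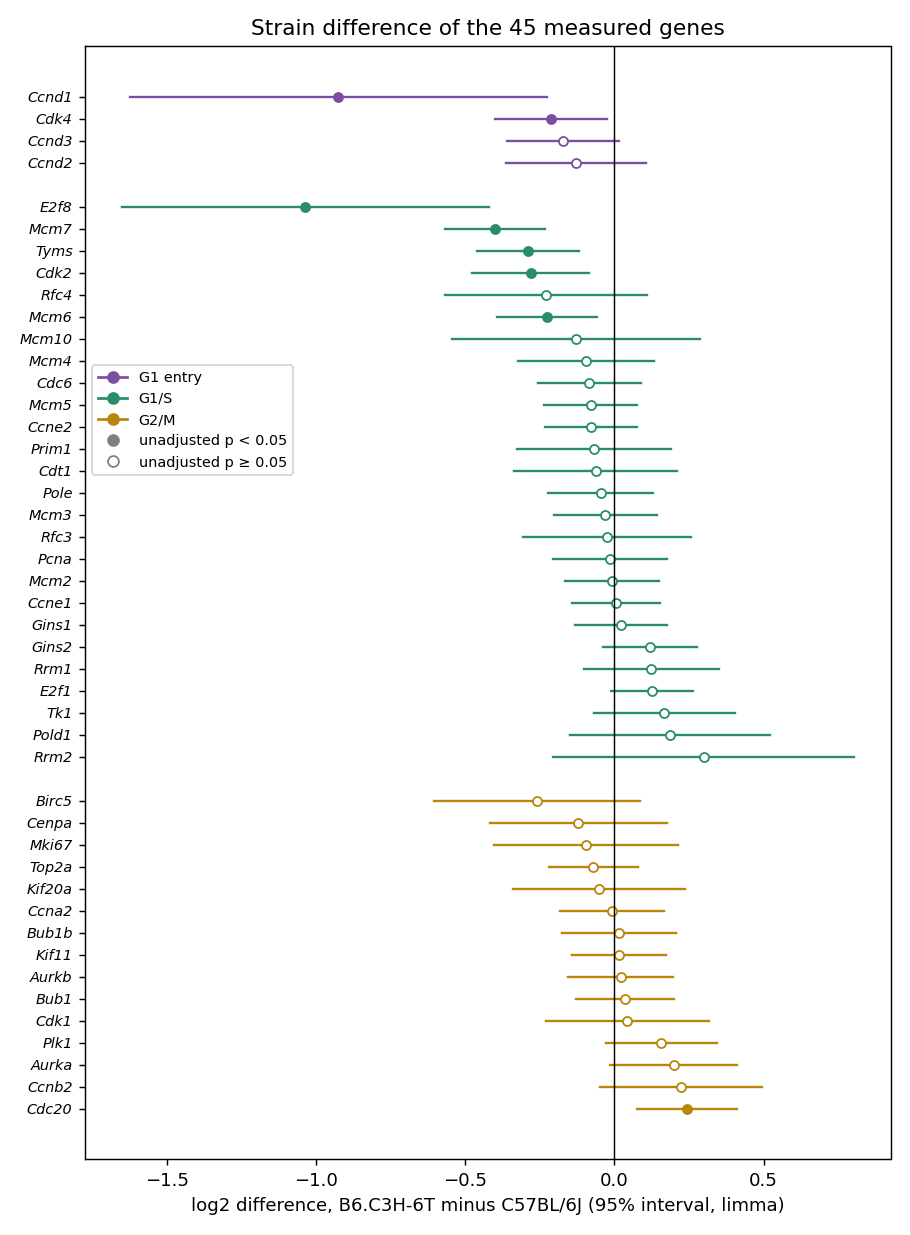
Log2 difference between B6.C3H-6T and C57BL/6J (x axis) of the 45 measured genes (rows, by phase), with 95% intervals from limma and 3 arrays per strain. The points of Ccnd1 (-0.93) and E2f8 (-1.04) lie far to the left of all others, which run from -0.40 to 0.30, and none passed after adjustment.

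By phase, the G1 entry genes were lower in 4 of 4 cases with a median of -0.19, the G1/S genes in 18 of 26 with a median of -0.05, and the G2/M genes in 6 of 15 with a median of 0.02. Over all genes 7990 of 18194 were lower, and the median was 0.02. Of the 8 members at an unadjusted p under 0.05, 2 of the 4 G1 entry genes and 5 of the 26 G1/S genes were lower, and 1 of the 15 G2/M genes was higher. At that threshold 5.82% of all genes were lower and 6.36% higher. The difference between the phases was not tested. The G2/M median was -0.04 without B6.C3H-6T replicate 3 and -0.02 without C57BL/6J replicate 1, so its sign rests on single arrays.

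The D cyclins are the growth factor sensors of the cycle, and Ccnd1, for cyclin D1, is the main one of hepatocytes. Ccnd1 measured 9.86, 8.47 and 9.48 on the B6.C3H-6T arrays, against 9.81, 10.49 and 10.29 on the C57BL/6J arrays. The strains overlapped, because B6.C3H-6T replicate 1 lay above C57BL/6J replicate 1, and B6.C3H-6T replicate 2 lay far below every other array. The difference was -0.93 ± 0.31 (log2 difference ± SE, 3 mice per strain, 1.90-fold lower; unadjusted p under 0.05, limma adjusted p = 0.320). Both other probe sets of Ccnd1 differed in the same direction, by -0.79 ± 0.25 and -1.08 ± 0.35, each at an unadjusted p under 0.05. Leaving out B6.C3H-6T replicate 2 gave -0.53, and leaving out replicate 1 of that strain gave -1.22.

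Cdk4 encodes the kinase that D cyclins activate. Its levels were 8.60, 8.40 and 8.60 in B6.C3H-6T, against 8.82, 8.79 and 8.63 in C57BL/6J. The strains did not overlap, although C57BL/6J replicate 3 lay within 0.03 of the nearest B6.C3H-6T arrays. The difference was -0.21 ± 0.08 (unadjusted p under 0.05, limma adjusted p = 0.374), and both other probe sets of Cdk4 gave -0.23, each at an unadjusted p under 0.05. Ccnd3 measured 9.10, 8.80 and 8.99 in B6.C3H-6T, against 9.12, 9.15 and 9.13 in C57BL/6J, with no overlap and a difference of -0.17 ± 0.08 (limma adjusted p = 0.445). Neither other probe set of Ccnd3 differed in that direction, with 0.12 and 0.11. Ccnd2, which lies on chromosome 6, measured 7.88, 7.44 and 7.70 in B6.C3H-6T, against 7.78, 7.85 and 7.77 in C57BL/6J. It overlapped widely, with a difference of -0.13 ± 0.10, and its 6 other probe sets split into 4 of that direction and 2 of the other. In Ccnd1, Ccnd2, Ccnd3 and Cdk4 the lowest of the 6 arrays was B6.C3H-6T replicate 2. Without it the difference was -0.15 for Cdk4, -0.09 for Ccnd3 and -0.01 for Ccnd2. Leaving out replicate 1 of that strain gave -0.23 for Ccnd2.

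**Figure D2:**
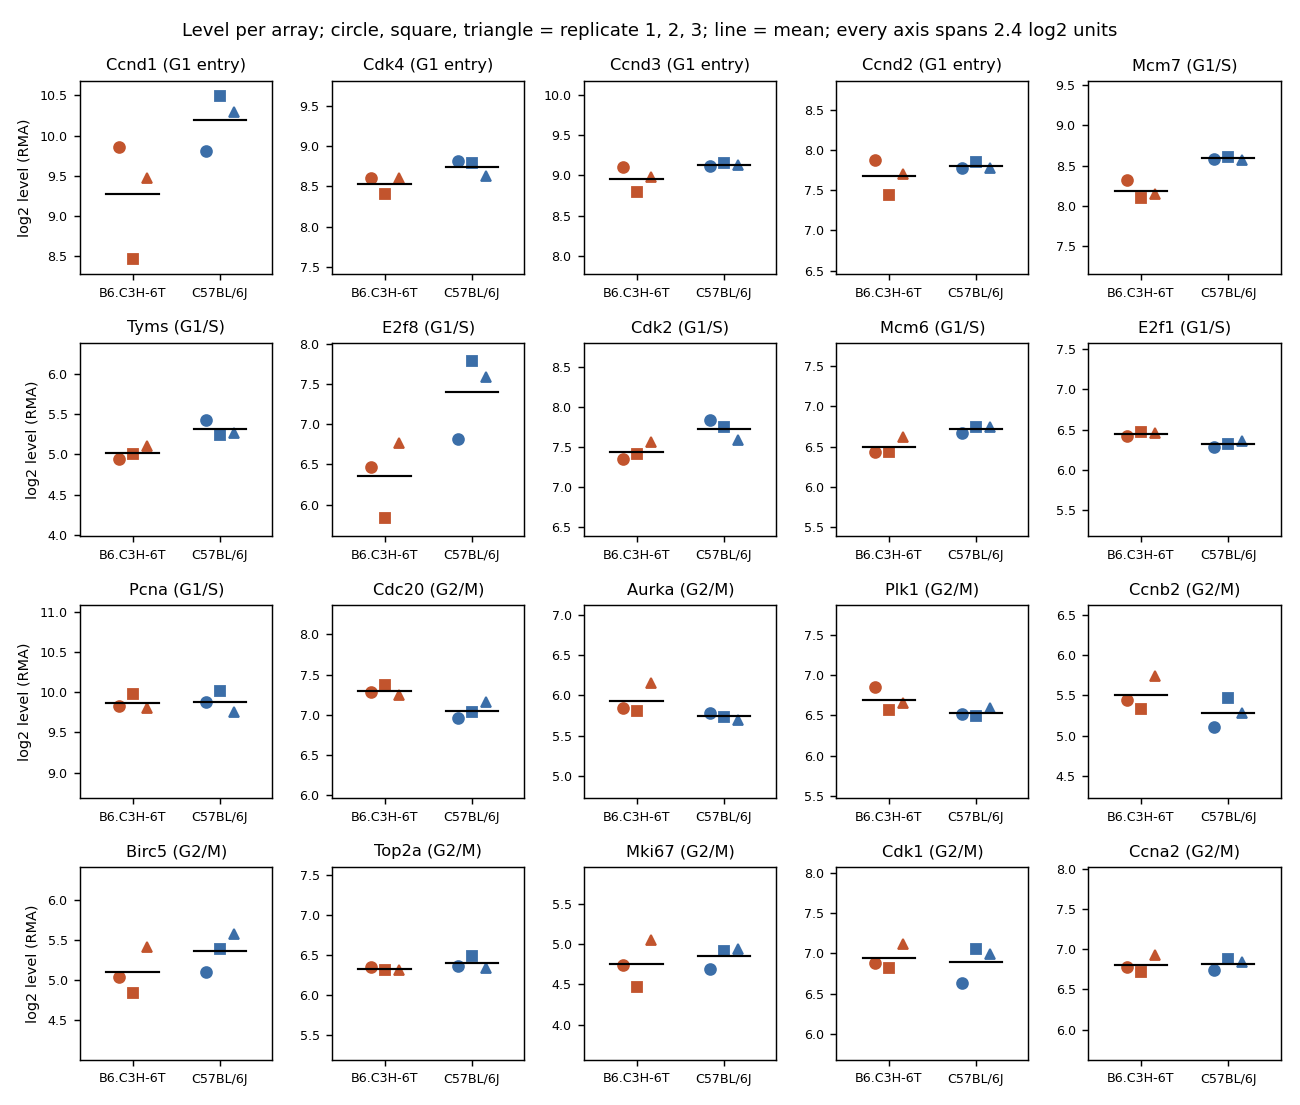
RMA log2 level (y axis) on each B6.C3H-6T array and each C57BL/6J array for the 20 members whose levels on all arrays are given under the naming rule, with the strain mean as a line and every y axis spanning the same length. Ccnd1 and E2f8 spread over about 2 log2 units within 6 arrays, while Pcna, Top2a and Ccna2 keep within 0.3.

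E2f8 showed the largest difference of the 45 genes. Its levels were 6.47, 5.84 and 6.77 in B6.C3H-6T, against 6.82, 7.78 and 7.59 in C57BL/6J. The strains did not overlap, but B6.C3H-6T replicate 3 and C57BL/6J replicate 1 were within 0.05 of each other. The difference was -1.04 ± 0.27 (2.05-fold lower; unadjusted p under 0.05, limma adjusted p = 0.249). The second probe set of E2f8 gave -0.22 ± 0.09, and the difference was -0.63 when both were averaged. It ran from -1.33 without C57BL/6J replicate 1 to -0.78 without B6.C3H-6T replicate 2. Ccnd1 and E2f8 shared the array order at both ends. B6.C3H-6T replicate 2 was the lowest array for both genes, and C57BL/6J replicate 2 and then C57BL/6J replicate 3 were the highest.

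Both genes also varied more between mice of 1 strain than almost all others. The SD within strains, pooled over both, was 0.57 for Ccnd1 and 0.49 for E2f8, larger than that of 99.9% and 99.8% of all genes. Of the remaining members, Rrm2 had a pooled SD of 0.40 and Mcm10 of 0.32, and 34 of 45 were under 0.2. The median was 0.11 for the members and 0.09 for all genes.

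The other genes of the cyclin E, Cdk2 and E2F step split in direction. E2f1, for the activating E2F of S phase entry, measured 6.42, 6.47 and 6.45 in B6.C3H-6T, against 6.29, 6.32 and 6.36 in C57BL/6J, without overlap and with a difference of 0.12 ± 0.06 (limma adjusted p = 0.454). Its sign was opposite to that of E2f8, and its other probe sets gave 0.05 and 0.10. Cdk2, for the kinase of cyclins E and A, measured 7.35, 7.41 and 7.56 in B6.C3H-6T, against 7.83, 7.75 and 7.58 in C57BL/6J. It did not overlap, by a margin of about 0.02 between B6.C3H-6T replicate 3 and C57BL/6J replicate 3, and differed by -0.28 ± 0.09 (unadjusted p under 0.05, limma adjusted p = 0.291). The second probe set of Cdk2 gave -0.02, with means of only 3.42 in B6.C3H-6T and 3.44 in C57BL/6J. That is far below the array medians, and so dim a probe set can hardly show a difference. Ccne1 and Ccne2, the cyclin E genes, differed by 0.01 ± 0.07 and -0.08 ± 0.07.

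The MCM proteins form the ring that unwinds DNA at the replication fork. The difference was below 0 for all 6 subunit genes, from -0.40 for Mcm7 to -0.01 for Mcm2, but none passed over all genes. With 1 array left out, the difference reached 0.03 for Mcm2 and 0.02 for Mcm3 and Mcm4, so that the sign of these 3 depends on single arrays. Mcm7 measured 8.32, 8.10 and 8.15 in B6.C3H-6T, against 8.58, 8.61 and 8.58 in C57BL/6J. The strains were clearly apart, and the C57BL/6J arrays lay within 0.03 of each other. The difference was -0.40 ± 0.07 (1.32-fold lower; unadjusted p under 0.05, limma adjusted p = 0.152), with a range of -0.47 to -0.35 when 1 array was left out. The 3 other probe sets of Mcm7 gave smaller values in the same direction, -0.22 ± 0.09, -0.08 ± 0.06 and -0.13 ± 0.09, and 1 of them had an unadjusted p under 0.05.

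Mcm6 measured 6.44, 6.43 and 6.62 in B6.C3H-6T, against 6.68, 6.75 and 6.75 in C57BL/6J. It did not overlap and differed by -0.23 ± 0.07 (unadjusted p under 0.05, limma adjusted p = 0.309), while its 2 other probe sets gave -0.02 and -0.10. The probe set with -0.10 was dim, with means of 3.90 in B6.C3H-6T and 3.99 in C57BL/6J. The remaining subunits Mcm2, Mcm3, Mcm4 and Mcm5 differed by -0.01, -0.03, -0.10 and -0.08 and overlapped between the strains. Their other probe sets were less uniform. The second probe set of Mcm2, a gene on chromosome 6, gave -0.20 ± 0.08, and that of Mcm4 gave -0.51 ± 0.15, each at an unadjusted p under 0.05. Of the 4 others of Mcm3, 1 gave 0.23 ± 0.07 in the opposite direction (unadjusted p under 0.05, limma adjusted p = 0.361 over all probe sets). The MCM genes thus did not share a difference of 1 size.

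Over all members 61 probe sets did not represent their gene. Of these, 10 had an unadjusted p under 0.05, 9 lower and 1 higher, against 10.6% of all probe sets in either direction. Most of the lower ones, 2 of Ccnd1, 2 of Cdk4, 1 of E2f8 and 1 of Mcm7, belonged to members already counted at that threshold. None passed when p was adjusted over all 45037 probe sets.

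**Figure D3:**
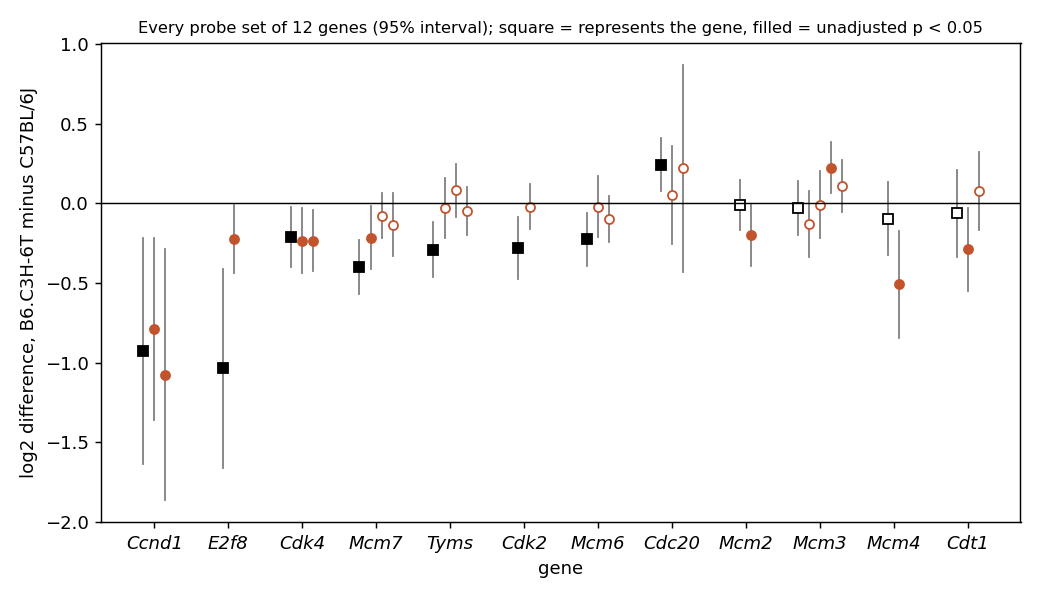
Log2 difference between B6.C3H-6T and C57BL/6J (y axis) for every probe set of 12 genes that had at least 1 probe set at an unadjusted p under 0.05, with 95% intervals from the fit over all probe sets. All 3 probe sets of Ccnd1 and all 3 of Cdk4 lie below 0 with their intervals, whereas for Tyms and Cdk2 a single probe set does. The other probe set of Cdk2 was dim, with means of 3.42 in B6.C3H-6T and 3.44 in C57BL/6J.

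The loading and firing factors, which place the helicase on origins and switch it on, showed no difference at an unadjusted p under 0.05. Cdc6, Cdt1, Mcm10, Gins1 and Gins2 ran from -0.13 for Mcm10 to 0.12 for Gins2 (lowest limma adjusted p = 0.532). The other probe sets of both genes went the other way, with 0.13 and 0.11 for Mcm10 and -0.08 for Gins2, and with 1 array left out Mcm10 ran from -0.36 to 0.03. A second probe set of Cdt1 gave -0.29 ± 0.12 (unadjusted p under 0.05, limma adjusted p = 0.443 over all probe sets), against -0.06 ± 0.12 for the one that represented it.

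Pcna, the sliding clamp of the polymerases and a common marker of S phase, measured 9.83, 9.98 and 9.80 in B6.C3H-6T, against 9.88, 10.01 and 9.76 in C57BL/6J. The strains interleaved, and the difference of -0.02 had a 95% interval of -0.21 to 0.18. The polymerase genes Pole and Pold1, the primase gene Prim1 and the clamp loader genes Rfc3 and Rfc4 ran from -0.23 for Rfc4 to 0.19 for Pold1. Each of them overlapped between the strains. The second probe set of Rfc4 went the other way (0.12 ± 0.10), and with 1 array left out Rfc4 ran from -0.39 to -0.08.

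Among the genes of nucleotide supply, Tyms, for thymidylate synthase, measured 4.95, 5.01 and 5.11 in B6.C3H-6T, against 5.42, 5.24 and 5.26 in C57BL/6J. There was no overlap, and the difference was -0.29 ± 0.08 (unadjusted p under 0.05, limma adjusted p = 0.248). Its 3 other probe sets, which were dimmer, gave -0.03, 0.08 and -0.05, so the value rests on 1 probe set. The ribonucleotide reductase genes Rrm1 and Rrm2 differed by 0.12 ± 0.10 and 0.30 ± 0.22, and the thymidine kinase gene Tk1 by 0.17 ± 0.11. Rrm2 was carried by B6.C3H-6T replicate 2, at 7.48 against 6.42 to 6.76 on the 5 other arrays, or 6.48 and 6.64 within its strain, and without that array its difference was -0.01. The array that was lowest for Ccnd1 and E2f8 was therefore the highest for Rrm2.

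The G2/M genes gave no shared shift. Cdc20, which activates the anaphase promoting complex, measured 7.28, 7.37 and 7.24 in B6.C3H-6T, against 6.96, 7.04 and 7.16 in C57BL/6J. The strains did not overlap, and the difference of 0.24 ± 0.07 was the only one of this phase at an unadjusted p under 0.05 (limma adjusted p = 0.288). Its 2 other probe sets gave 0.05 ± 0.14 and 0.22 ± 0.29. The mitotic kinase and checkpoint genes Aurka, Aurkb, Plk1, Bub1 and Bub1b were on the same side of 0, together with Cdc20 6 of 6, from 0.01 to 0.24. With 1 array left out, the difference reached -0.03 for Aurkb and -0.04 for Bub1b, and 1 of the 2 other probe sets of Bub1b gave -0.04.

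Aurka, for the centrosomal Aurora kinase, measured 5.85, 5.81 and 6.15 in B6.C3H-6T, against 5.78, 5.73 and 5.70 in C57BL/6J, without overlap (0.20 ± 0.09, limma adjusted p = 0.438). Plk1, for the Polo kinase, measured 6.85, 6.56 and 6.66 in B6.C3H-6T, against 6.52, 6.50 and 6.59 in C57BL/6J, with an overlap (0.16 ± 0.08, adjusted p = 0.482). Ccnb2, for cyclin B2, measured 5.44, 5.33 and 5.74 in B6.C3H-6T, against 5.11, 5.46 and 5.28 in C57BL/6J, also with an overlap (0.22 ± 0.12, adjusted p = 0.492). The only other probe set of Aurka gave -0.06 ± 0.06, and the mean of both gave 0.07. Leaving out B6.C3H-6T replicate 3 gave 0.09 for Aurka and 0.11 for Ccnb2, and leaving out B6.C3H-6T replicate 1 gave 0.08 for Plk1. Ccnb2 was 0.14 without C57BL/6J replicate 1. B6.C3H-6T replicate 3 was the highest array for both Aurka and Ccnb2, and C57BL/6J arrays reached into the B6.C3H-6T range for Plk1 and Ccnb2.

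The usual markers of dividing cells differed little, but the 4 given here were all below the median brightness of all genes. Mki67, for the Ki-67 antigen, measured 4.74, 4.46 and 5.06 in B6.C3H-6T, against 4.69, 4.91 and 4.94 in C57BL/6J. The B6.C3H-6T mice held both the lowest and the highest value, and the difference was -0.10 with a 95% interval of -0.40 to 0.21. Top2a, for the topoisomerase that untangles chromosomes, measured 6.35, 6.32 and 6.31 in B6.C3H-6T, against 6.36, 6.48 and 6.34 in C57BL/6J (difference -0.07, interval -0.22 to 0.08, and -0.03 without C57BL/6J replicate 2). Cdk1, the kinase of mitotic entry, measured 6.88, 6.81 and 7.12 in B6.C3H-6T, against 6.63, 7.06 and 6.99 in C57BL/6J (difference 0.04, interval -0.23 to 0.32). Ccna2, for cyclin A2 of S and G2 phase, measured 6.78, 6.72 and 6.93 in B6.C3H-6T, against 6.74, 6.87 and 6.83 in C57BL/6J (difference -0.01, interval -0.18 to 0.17). Mki67, Cdk1 and Ccna2 interleaved between the strains. Top2a overlapped only because B6.C3H-6T replicate 1 lay just above C57BL/6J replicate 3, and its other probe sets gave -0.08 and -0.17.

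Birc5, for the survivin subunit of the chromosomal passenger complex, measured 5.04, 4.84 and 5.41 in B6.C3H-6T, against 5.10, 5.39 and 5.57 in C57BL/6J. It overlapped, with a difference of -0.26 ± 0.15 (limma adjusted p = 0.532). Leaving out B6.C3H-6T replicate 2 gave -0.13 and leaving out replicate 3 of that strain gave -0.41, while the value was -0.15 when C57BL/6J replicate 3 was left out. The centromeric histone gene Cenpa and the mitotic kinesin genes Kif11 and Kif20a differed by -0.12, 0.02 and -0.05 and overlapped as well. A filter on dim genes bears most on this phase, since 2 of its 15 members were at or above the median brightness of all genes, against 8 of 26 in G1/S and 4 of 4 at G1 entry, or 14 of 45 in all.

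**Figure D4:**
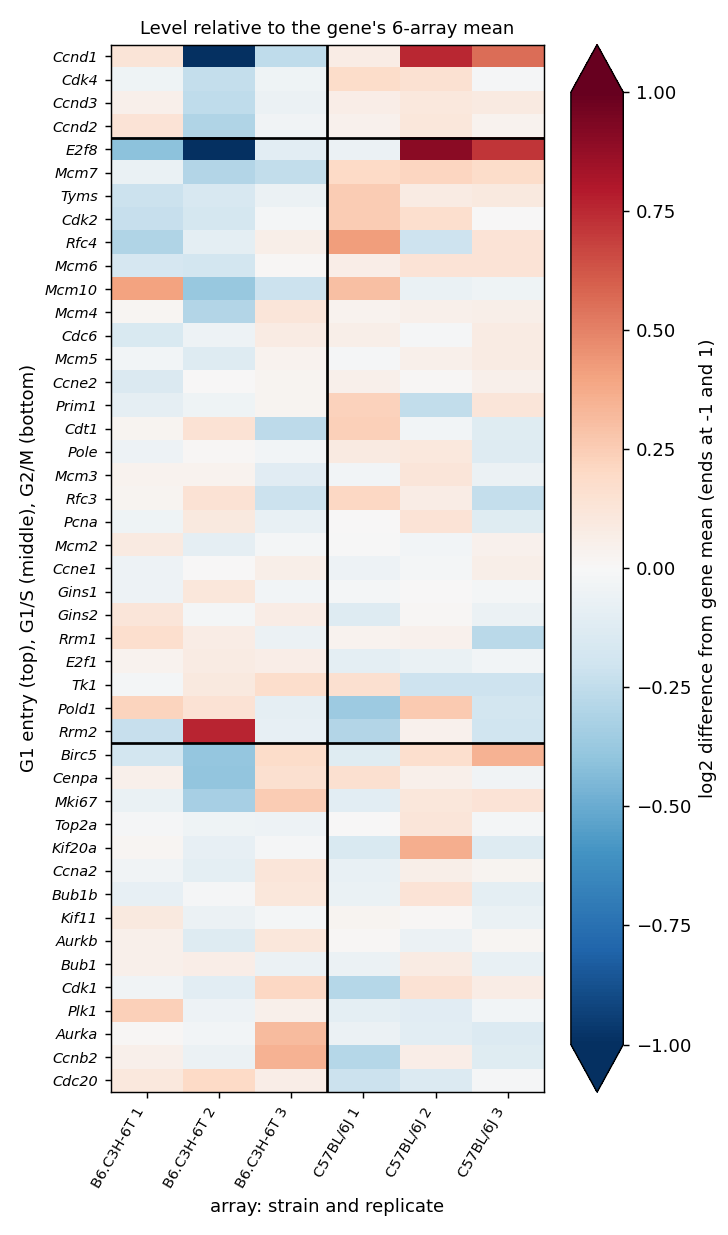
Level on each array relative to the gene's mean over 6 arrays (colour, log2), for the 45 genes in rows by phase and the B6.C3H-6T and C57BL/6J arrays in columns. B6.C3H-6T replicate 2 is the lowest array for 16 of the 45 genes, including Ccnd1 and E2f8, but the highest for Rrm2.

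Across mice, B6.C3H-6T replicate 2 gave the lowest value of the 6 arrays in 16 of 45 members, where it did so in 18.1% of all genes, and C57BL/6J replicate 2 gave the highest in 12, where it did so in 19.1% of all genes. In the G2/M class 2 of 15 genes of B6.C3H-6T replicate 2 were above their own mean over the arrays, against 9 of 15 in B6.C3H-6T replicate 1 and 11 of 15 in B6.C3H-6T replicate 3. The corresponding counts were 4, 11 and 5 on the C57BL/6J arrays. Both strains thus held arrays with many and arrays with few such genes.

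Liver holds other cells that divide, and in bulk RNA fewer cells of a type and less RNA per cell cannot be told apart. The 10 markers of Kupffer cells, the macrophages of liver, were all lower in B6.C3H-6T, with a median of -0.27. Over all genes 7990 of 18194 were lower, and the median was 0.02. At an unadjusted p under 0.05, 9 of the 10 markers were lower, against 5.82% of all genes. However, none of the 10 passed over all genes (lowest limma adjusted p = 0.269). Their mean per array ran from 9.42 to 9.62 in B6.C3H-6T, against 9.72 to 9.99 in C57BL/6J, and the lowest of these markers on any array was 6.98. Clec4f, for a Kupffer cell lectin and itself on chromosome 6, measured 10.40, 10.05 and 10.35 in B6.C3H-6T, against 10.47, 10.73 and 10.40 in C57BL/6J, so that here too B6.C3H-6T replicate 2 was the lowest array and C57BL/6J replicate 2 the highest. Their part in the values of Ccnd1, E2f8, Mcm7 and the other members was not tested. The means of the B and plasma cell markers ran from 5.89 to 5.99 in B6.C3H-6T, against 6.00 to 6.09 in C57BL/6J. Those of the granulocyte markers ran from 5.96 to 5.99 in B6.C3H-6T, against 5.90 to 5.95 in C57BL/6J, and those of the erythroid markers from 5.90 to 5.95 in B6.C3H-6T, against 5.86 to 5.88 in C57BL/6J. The means of these 3 lists did not overlap, by small margins, but their members went both ways. The B and plasma cell markers were 4 lower and 2 higher, the granulocyte markers 2 lower and 4 higher, and the erythroid markers 3 lower and 3 higher. Of the 6 markers in each list, 0, 0 and 2 were at or above the median brightness of all genes. The part of these 3 lists in the values of the members was likewise not tested. The means of the hepatocyte, endothelial, stellate, cholangiocyte and T and NK cell markers overlapped between the strains. The overlap was narrow for hepatocytes (13.68 to 13.727 in B6.C3H-6T, 13.584 to 13.684 in C57BL/6J) and cholangiocytes (6.355 to 6.499 and 6.333 to 6.358). The hepatocyte markers were 1 lower and 9 higher, and the 5 cholangiocyte markers were all higher. The endothelial markers were 6 lower and 2 higher, the stellate 5 and 3, and the T and NK cell 3 and 4. None of the 8 endothelial, 8 stellate, 5 cholangiocyte and 7 T and NK cell markers had an unadjusted p under 0.05 in limma. Of the 10 hepatocyte markers 1 did, Tat (0.42 ± 0.09, without overlap), but it did not pass over all genes.

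The second comparison took other genes of the pathway, from 7 lists with 120 measured members of 123. None passed over all genes in limma, and 12 of the 120 had an unadjusted p under 0.05 (against 12.2% of all genes), 8 lower and 4 higher. Their median was -0.01. For 18 of the 120 the strains did not overlap, against 17.8% of all genes.

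Among origin and fork genes Tipin, a partner of Timeless at the fork, measured 7.02, 7.06 and 7.11 in B6.C3H-6T, against 7.46, 7.49 and 7.26 in C57BL/6J (-0.34 ± 0.08, limma adjusted p = 0.211). The origin recognition genes Orc3 and Orc1 went opposite ways, by -0.19 ± 0.06 and 0.17 ± 0.06. Of the 33 genes of that list 3 had an unadjusted p under 0.05 (9.09%), against 12.2% of all genes. In nucleotide supply, the mitochondrial thymidine kinase gene Tk2 differed by -0.31 ± 0.08, the uridine monophosphate synthase gene Umps by 0.26 ± 0.08 and the thymidylate kinase gene Dtymk by -0.17 ± 0.08. In replication coupled chromatin the assembly factor gene Chaf1b differed by 0.21 ± 0.08, and Hells and Asf1b by 0.10 and 0.06.

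Of the retinoblastoma and E2F regulators 13 of 15 were below 0 with a median of -0.04. Of all 18194 genes, 7990 were lower and the median was 0.02. However, 14 of the 15 regulators differed by less than 0.15 in either direction. Only 1 of the 15 (6.67%) had an unadjusted p under 0.05 in limma, against 12.2% of all genes. This was Rb1, for the pocket protein that D cyclins target. Rb1 measured 6.87, 6.83 and 6.99 in B6.C3H-6T, against 7.36, 6.97 and 7.14 in C57BL/6J (-0.26 ± 0.10, limma adjusted p = 0.375). Mybl2 and Foxm1, transcription factor genes of the mitotic programme, differed by 0.13 ± 0.07 and 0.08 ± 0.07. Of these, Foxm1 lies on chromosome 6. Cdk6, the other partner of the D cyclins, measured 8.57, 8.32 and 8.53 in B6.C3H-6T, against 8.64, 8.74 and 8.74 in C57BL/6J, without overlap (-0.24 ± 0.08, adjusted p = 0.328). The CDK inhibitor gene Cdkn1a, for p21, measured 7.38, 7.82 and 7.47 in B6.C3H-6T, against 7.41, 7.37 and 7.20 in C57BL/6J (0.23 ± 0.11, adjusted p = 0.454), and its highest array was B6.C3H-6T replicate 2. The inhibitory kinase gene Pkmyt1 differed by 0.13 ± 0.07.

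**Figure D5:**
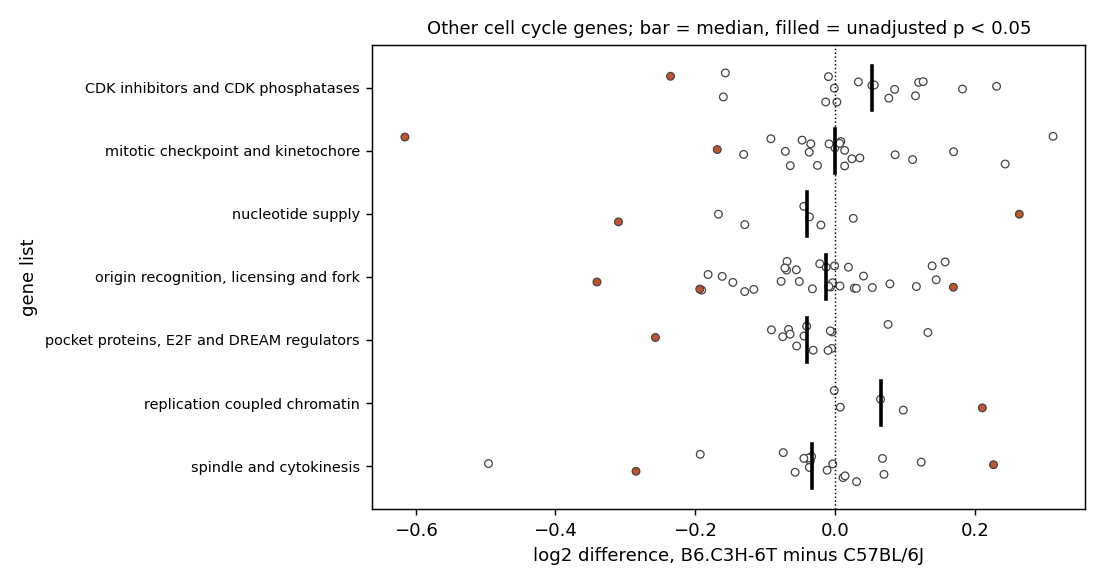
Log2 difference between B6.C3H-6T and C57BL/6J (x axis) of 120 further cell cycle genes in 7 lists (rows), 1 point per gene with the list median as a bar. List medians lie between -0.04 and 0.06, and none of the genes passed after adjustment.

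In the kinetochore list Spc25, for a subunit of the Ndc80 complex, had the largest difference of all 120 genes. It measured 7.11, 6.78 and 7.85 in B6.C3H-6T, against 7.92, 7.53 and 8.14 in C57BL/6J, with an overlap (-0.62 ± 0.25, limma adjusted p = 0.379). The securin gene Pttg1 differed by -0.17 ± 0.07 and Cenpn by 0.17 ± 0.08. In the spindle and cytokinesis list the citron kinase gene Cit differed by 0.23 ± 0.07 and the mitotic kinase gene Pbk by -0.28 ± 0.12. Stmn1, for a protein that destabilises microtubules, measured 8.14, 7.51 and 8.52 in B6.C3H-6T, against 8.29, 8.73 and 8.64 in C57BL/6J (-0.50 ± 0.22, adjusted p = 0.413). Stmn1 and Spc25 were thus also lowest in B6.C3H-6T replicate 2.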

How the data were processed

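Values were deposited by the authors on the log2 scale for each probe set on each array. The submitters' processing notes name RMA and the affy package. Their versions and any later step are not given in the sources used here. Images were quantified with GeneChip Operating Software version 1.2 per the labels. RNA was reverse transcribed from an oligo(dT) primer, per the labels' protocols, so that the 3' ends of transcripts are read best, and sequence differences between the strains under a probe can change its signal.

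The members and all gene lists were chosen with earlier results of these data known. Of 45101 probe sets 64 controls were left out. Of the rest 34945 were paired with 1 gene, 932 with several and 9160 with none, with symbols updated through gene identifiers to RefSeq (GRCm38.p6). The probe set of highest mean over 6 arrays stood for its gene, and other probe sets were compared. The strains were fitted with limma 3.58.1 in R 4.3.3 (lmFit, eBayes, no covariate, no filter), with Benjamini-Hochberg adjustment over 18194 genes and a threshold of 0.05. Values of single probe sets are from a fit over 45037 probe sets. The fit was tested on simulated data with shifts of 1 and 2 log2 units, which does not cover the smaller differences of most members. Levels are given for Mki67, Pcna, Ccna2, Cdk1, Top2a and Ccnd1, for the 6 G1/S, 6 G2/M and 4 G1 entry members of smallest p, and differences for the 3 genes of smallest p in each further list. Promoters are shown for up to 2 members of each phase, by smallest p with a match. Levels of Rrm2, Clec4f and some further list genes were added after their values were seen. The number of arrays limits the precision, and whether the mice came from separate litters is not given.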

Additional observations from a re-analysis of the deposited data

How the results depend on the processing

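No member and no further cell cycle gene passed over all genes under any of the 13 alternatives to the limma fit: 7 changes of probe set, filter, scaling, variance model or family of adjustment, and 6 fits without 1 array. The 13 genes called over all genes became 0 in a linear fit without moderated variances (1746 genes at an unadjusted p under 0.05), and ran from 6 to 18 without 1 array, with 6 without C57BL/6J replicate 2 and 7 without C57BL/6J replicate 3. The 8 members at an unadjusted p under 0.05 (against 12.2% of all genes) became 5 among the brighter genes (against 14.6% of those genes), which left 14 of 45 members tested. They became 6 when the probe sets of a gene were averaged, 6 in the linear fit, 7 with an intensity trend, and 7 of the 39 still tested without probe sets that can match several transcripts. Without 1 array they ran from 8 to 11, against 7.59% to 13.3% of all genes. The median difference of the G1/S members was -0.0046 among the brighter genes, with 8 of 26 members left, and ran from -0.069 without C57BL/6J replicate 3 to -0.0151 without C57BL/6J replicate 1. That of the G2/M members ran from -0.04 to 0.09 and that of the G1 entry members from -0.24 to -0.12 without 1 array. Among the 20 members named by rule (dim ones had no value among the brighter genes), a sign turned for Ccna2, Cdk1, Pcna and Mki67 without single arrays and for Ccnd3 with the mean of all its probe sets (0.02). Centring of the arrays moved the median of all genes by about 0.01 and changed no count of members. No paired analysis was possible because the labels give no replicate numbers shared by the strains. Signal over background was not available, since the deposited values hold no detection calls.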
